A study of Mus musculus with 16 samples.

Results

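The 9 genes described here encode core subunits of Polycomb repressive complex 1 (PRC1): the chromodomain proteins Cbx2, Cbx6, Cbx7 and Cbx8, the RING proteins Rnf2 and Ring1, the PCGF proteins Bmi1 and Pcgf2, and the adaptor Yaf2. They were chosen by gene symbol, and all 9 were found among the 20325 genes of the deposited table. Polyadenylated RNA was sequenced from C3H10T1/2, a mouse cell line with properties of mesenchymal stem cells. The 16 libraries fall into 8 groups of 2, each expressing a different histone H3 transgene. H3.3 carried no change (WT), G34W, G34R or K27R, or G34W together with K27R or with K36R. H3.1 carried no change (WT) or G34W. Each change names the residue replaced, its position in H3 and the new residue. In all 8 groups the transgene was delivered by lentivirus for 2 days, and puromycin (1.5 µg/ml) was then applied for 4 days to keep the cells that carried it. The cells keep their own H3 genes, no untransduced group was analysed here, and the promoter of the transgene is not given in the sources used here.

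PRC1 is a ubiquitin ligase that marks histone H2A and keeps developmental genes silent. Its catalytic core pairs a RING protein with a PCGF protein. In canonical PRC1 the core contains Bmi1 or Pcgf2 and a CBX protein, whose chromodomain reads the methylation that Polycomb repressive complex 2 (PRC2) places on lysine 27 of H3. In variant PRC1 the CBX protein is replaced by Rybp or Yaf2, and recruitment does not need that methylation. In mesenchymal cells and fibroblasts, PRC1 is best known for repressing the Cdkn2a and Cdkn2b locus, which encodes cell cycle inhibitors, and the Hox genes.

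Values are the deposited median-normalized expected counts, so a value close to a read count. Log2 fold changes were fitted on log2(value + 1) with limma and carry the standard error of the fit. A gene is called where its Benjamini-Hochberg adjusted p over all 12670 tested genes is under 0.05. Estimated depth ran from 26.02 to 49.1 M reads. It was 34.8 to 49.1 M in the 6 libraries of H3.3 G34W K36R and of both H3.1 groups, called the deeper libraries here, and 26.02 to 33.8 M in the other 10, so depth and transgene cannot be told apart in comparisons across these sets. The 10 mesenchymal markers summed to at least 436376 in every library, although Nt5e was low, with a median of 6.36 and a lowest value of 0.968. Most of these sums came from Col1a1, Col1a2 and Vim (medians 181703, 173255 and 187706). Of the 10 markers of epithelium, blood and muscle, Epcam, Krt18, Ptprc and Myod1 were below 3 reads in every library, and Cdh1 (median 77.1, highest 299.9), Des (9.10 to 150.3) and Cd68 (12.5 to 55.8) were above that in all.

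The 2 libraries of a group agreed to very different degrees. For 2388 genes with whole reads, the H3.3 WT pair showed differences within sampling noise, with a chi-square of 0.961 for each degree of freedom (p = 0.910), and it entered the fit as 1 sample. Over all 11921 genes with enough reads the ratio was 1.23, above that noise. For genes with whole reads the same ratio was 1.19 to 1.46 in the pairs of H3.3 G34R, K27R, G34W K27R and G34W K36R, and 37.0 to 54.8 in those of H3.3 G34W, H3.1 WT and H3.1 G34W. The labels do not say whether replicates are separate cultures, so p-values measure only how far these libraries spread, and that spread may be technical. When both libraries of these 5 close pairs (H3.3 WT included) were merged into 1 sample, no member passed in any comparison. Of the 81 calls of genes in the related lists described below, 3 passed in that fit, all in Cdkn2a and Cdkn2b. Across tested genes, both libraries of H3.3 G34W lay closer to a library of H3.3 G34R than to each other (r with each other 0.938), and replicate 1 of H3.1 G34W lay closest to replicate 1 of H3.1 WT (r = 0.992, against 0.969 with its own replicate).

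All 9 members were expressed in every library and all 9 passed the minimum mean of 10. Per kilobase of their longest annotated coding transcript, the mean level over the libraries was highest for Cbx6 (1512) and Bmi1 (1329). Yaf2 (759), Rnf2 (758), Pcgf2 (557) and Ring1 (413) lay between them and Cbx2 (180.5), Cbx8 (111) and Cbx7 (72.1). On this scale the most abundant CBX transcript of the list, Cbx6, stood far above the others. The deposited value varied least across the libraries for Pcgf2, with a highest value 1.58 times the lowest, and most for Cbx2, with a ratio of 3.13. Bmi1 varied 2.28-fold.

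**Figure D1:**
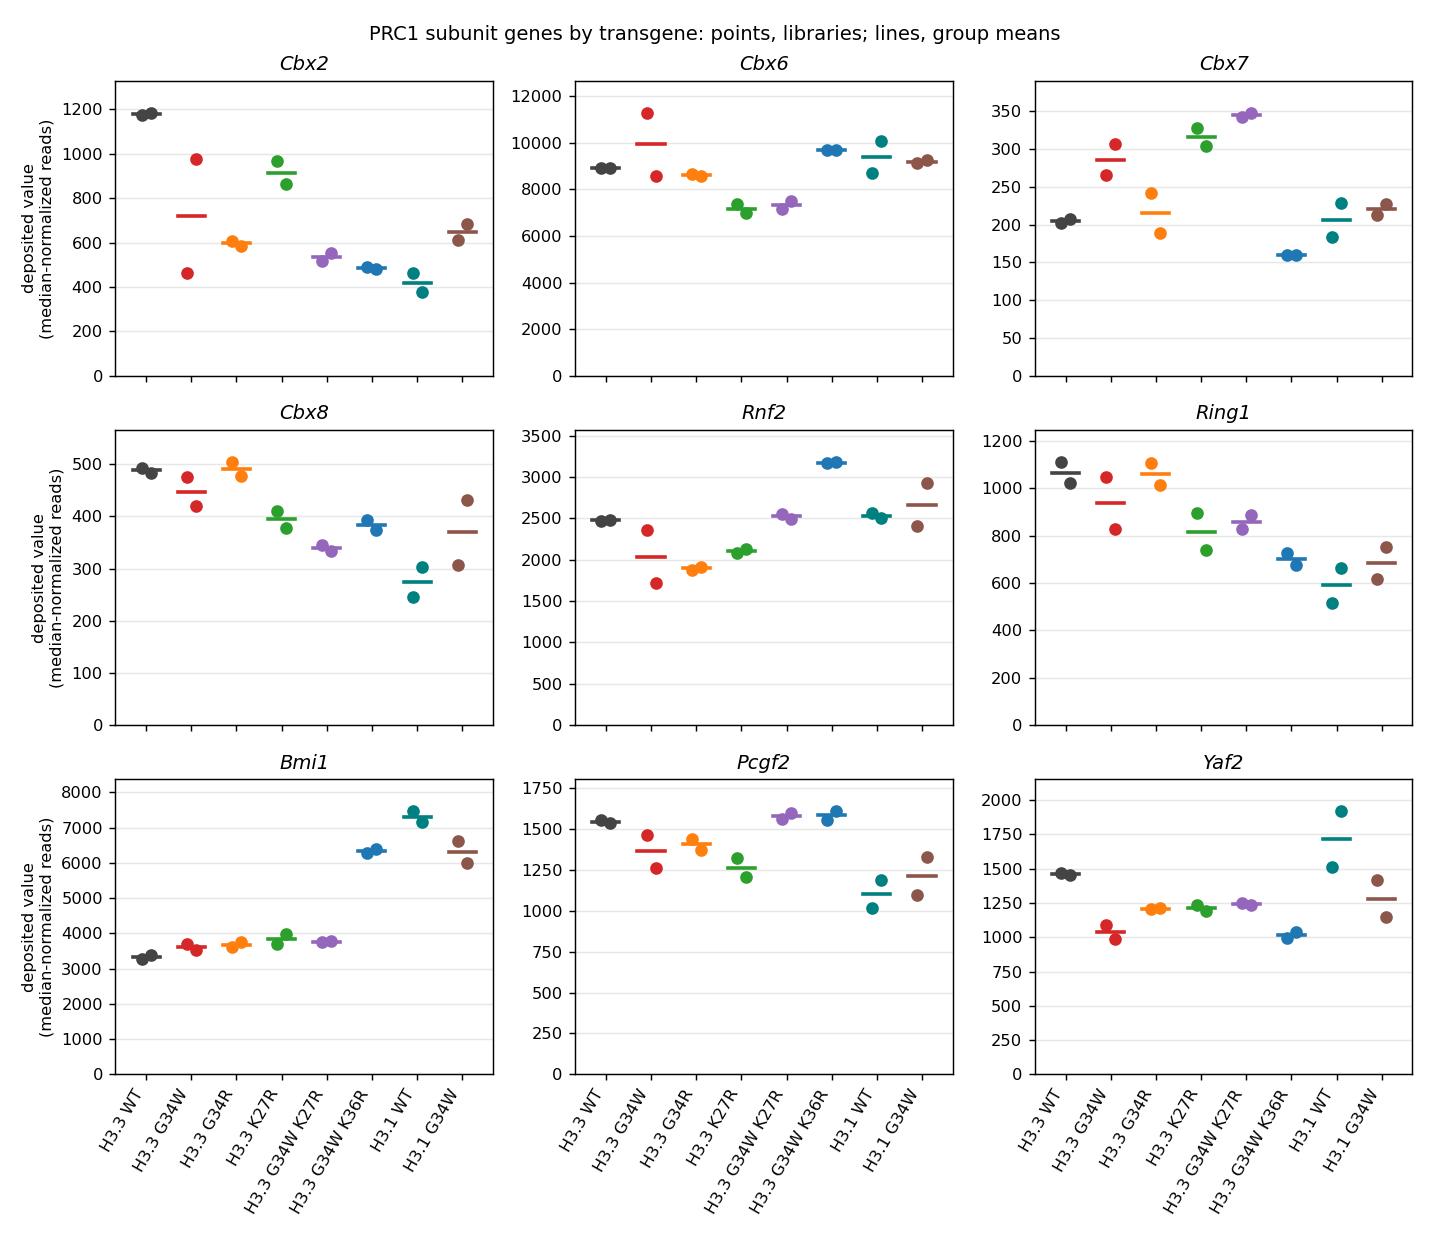
Deposited value of each of the 9 members in each of the 16 libraries, by transgene group, with 1 panel per gene and the vertical axis starting at 0. Points are libraries and the horizontal line is the mean of the 2. Bmi1 lies between 5997 and 7468 in the 6 libraries of H3.3 G34W K36R, H3.1 WT and H3.1 G34W and at or below 3985 in the other 10, and Cbx2 is highest in H3.3 WT.

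Compared over the 8 groups at once with limma's moderated F test, 8 of the 9 members differed, against 66.6% of all tested genes. The exception was Cbx6 (adjusted p = 0.0801), and the smallest value was that of Bmi1 (adjusted p = 5.1e-05), which ranked 664 of 12670. With the 5 close pairs counted as 1 sample each, none of the 9 passed (Bmi1 adjusted p = 0.0990) and 1029 of all tested genes did. When either library of H3.3 G34W K36R was left out, 3 of the 9 passed, and 4 or 5 passed when either library of H3.3 G34R, H3.3 K27R or H3.3 G34W K27R was left out.

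Bmi1 and Pcgf2 are the paralogous PCGF proteins of canonical PRC1, each of which binds a RING protein and stimulates its ligase activity. Bmi1 had the largest group differences relative to its spread of the 9. It read 3279.7 and 3391 in the H3.3 WT libraries, 3706 and 3520.2 in H3.3 G34W, 3615 and 3741 in H3.3 G34R, 3704 and 3985 in H3.3 K27R, and 3759.9 and 3776 in H3.3 G34W K27R. It read 6286 and 6397 in H3.3 G34W K36R, 7468 and 7154 in H3.1 WT, and 6629.7 and 5997 in H3.1 G34W. The last 3 groups lay wholly above the first 5, and all 14 other libraries lay above both H3.3 WT libraries, which count as 1 sample. Such separations, here and for the members and ratios below, are given without the share of all tested genes that show them. They are not particular to Bmi1 by this description, since Herc4, Mtpn and Cul4b followed it over the libraries (r of 0.987 to 0.991). In the order of group means, H3.1 WT stood apart at the top, H3.3 G34W K36R and H3.1 G34W overlapped each other, and H3.3 WT was lowest.

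The region upstream of the Bmi1 start is shown because this gene carried the clearest difference, beside those of Cbx8 and Ring1, which were lower where Bmi1 was higher in H3.1 WT. RefSeq (GRCm38.p6) gave promoters for 7 of the 9 members, all but Cbx2 and Yaf2. Each line is the 250 bases that end just before the transcription start, 5′ to 3′ on the strand of the gene, at chr2:18676768-18677017 on the plus strand for Bmi1, chr11:119040914-119041163 on the minus strand for Cbx8 and chr17:34024681-34024930 on the minus strand for Ring1. Capitals mark matches to 3 motifs searched on both strands: the E-box CACGTG, the cyclic AMP response element TGACGTCA, and the E2F motif in the forms TTTCGCGC and TTTGGCGC.
Bmi1: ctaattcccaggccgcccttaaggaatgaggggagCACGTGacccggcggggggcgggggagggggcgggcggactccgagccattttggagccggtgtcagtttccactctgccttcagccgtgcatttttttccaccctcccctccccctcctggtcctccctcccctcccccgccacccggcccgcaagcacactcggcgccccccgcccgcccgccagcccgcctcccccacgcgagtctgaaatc
Cbx8: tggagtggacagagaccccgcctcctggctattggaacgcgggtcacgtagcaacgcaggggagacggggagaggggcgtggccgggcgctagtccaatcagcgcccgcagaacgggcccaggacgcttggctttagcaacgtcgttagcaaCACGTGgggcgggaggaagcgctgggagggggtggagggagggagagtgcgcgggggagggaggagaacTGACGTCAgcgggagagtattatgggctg
Ring1: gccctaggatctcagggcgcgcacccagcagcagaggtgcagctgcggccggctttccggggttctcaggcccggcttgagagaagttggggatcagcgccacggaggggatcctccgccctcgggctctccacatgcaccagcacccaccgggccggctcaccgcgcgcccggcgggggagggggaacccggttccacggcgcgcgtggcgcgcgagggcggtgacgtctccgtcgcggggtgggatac
The Bmi1 sequence holds an E-box that begins 215 bases before the start, and the Cbx8 sequence holds an E-box at 98 and a response element at 29 bases. The Ring1 sequence has no match. Of the other 4 members with a promoter, Cbx6 has an E-box at 26 and Pcgf2 at 137 bases before the start, and Cbx7 and Rnf2 have no match. Of all 32851 RefSeq promoters searched over the same length, 6.02% hold the E-box, 1.55% the response element and 0.654% an E2F motif.

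Bmi1 rose in 3 comparisons, each of which sets deeper against shallower libraries. Its log2 fold change was 1.13 ± 0.130 in H3.1 WT against H3.3 WT (adjusted p = 2.29e-04), 0.81 ± 0.106 in H3.3 G34W K36R against H3.3 G34W (adjusted p = 4.98e-04) and 0.93 ± 0.130 in H3.3 G34W K36R against H3.3 WT (adjusted p = 0.00149). The first and the last of these share the H3.3 WT libraries. No comparison within the 10 shallower libraries or within the 6 deeper ones called Bmi1, and there its log2 fold changes ran from -0.21 to 0.20. All 3 calls held with any single library left out and under every scaling, and all 3 were lost with close pairs counted as 1 sample (adjusted p = 0.0661, 0.260 and 0.408 in the order above). In bulk RNA, a change in the share of cells that express a gene and a change per cell cannot be told apart. In the deposited value, the neighbouring gene Commd3, which RefSeq places next to Bmi1, lay between 2099 and 3466 over the libraries.

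Pcgf2 read 1554 and 1538 in H3.3 WT and 1018 and 1189 in H3.1 WT, with a log2 fold change of -0.49 ± 0.170 (adjusted p = 0.0486). In the other groups its values were 1099.7 (H3.1 G34W replicate 1) to 1611, with H3.3 G34W K36R (1559 and 1611) and H3.3 G34W K27R (1561 and 1598) highest, and no other comparison called it. This call is marginal, since it was kept under 12 of 26 alternatives. Per length, the ratio of Bmi1 to Pcgf2 was 1.46 and 1.52 in H3.3 WT, 1.67 and 1.63 in H3.3 G34W K27R, 2.79 and 2.75 in H3.3 G34W K36R, 5.07 and 4.16 in H3.1 WT, and 4.17 and 3.12 in H3.1 G34W. The ratio was above 1 in all 16 libraries. It was 2.75 to 5.07 (median 3.64) in the 6 deeper libraries and 1.46 to 2.28 (median 1.74) in the other 10.

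Rnf2 and Ring1 are the alternative RING proteins that carry the ligase activity of PRC1. Rnf2 read 2357 and 1713 in H3.3 G34W, 1881 and 1915 in H3.3 G34R, 2087 and 2129 in H3.3 K27R, 2471 and 2483 in H3.3 WT, 2553 and 2498 in H3.3 G34W K27R, 3166 and 3183 in H3.3 G34W K36R, 2559 and 2502 in H3.1 WT, and 2403 and 2927 in H3.1 G34W. Both H3.3 G34W K36R libraries lay above all others. Rnf2 rose in H3.3 G34W K36R against H3.3 G34W by 0.66 ± 0.153 (adjusted p = 0.00979), a call that was lost when either library of H3.3 G34W K36R was left out. Against H3.3 WT the same group differed by 0.36 ± 0.187 (adjusted p = 0.217).

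Ring1 read 1112 and 1022 in H3.3 WT, 1047 and 829 in H3.3 G34W, 1109 and 1012 in H3.3 G34R, 896 and 738 in H3.3 K27R, 830.5 and 886 in H3.3 G34W K27R, 727 and 678 in H3.3 G34W K36R, 518 and 665 in H3.1 WT, and 619 and 753 in H3.1 G34W. It was lowest in the groups where Bmi1 was highest, with an overlap between H3.1 G34W (753) and H3.3 K27R (738). Ring1 fell in H3.1 WT against H3.3 WT by 0.86 on the log2 scale (SE 0.222, adjusted p = 0.0146). In H3.3 G34W K36R against H3.3 WT its log2 fold change was -0.60 ± 0.222 (adjusted p = 0.0903). Per length, the ratio of Rnf2 to Ring1 was 2.39 to 3.14 in the 6 deeper libraries and 1.08 to 1.95 in the other 10, without overlap.

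**Figure D2:**
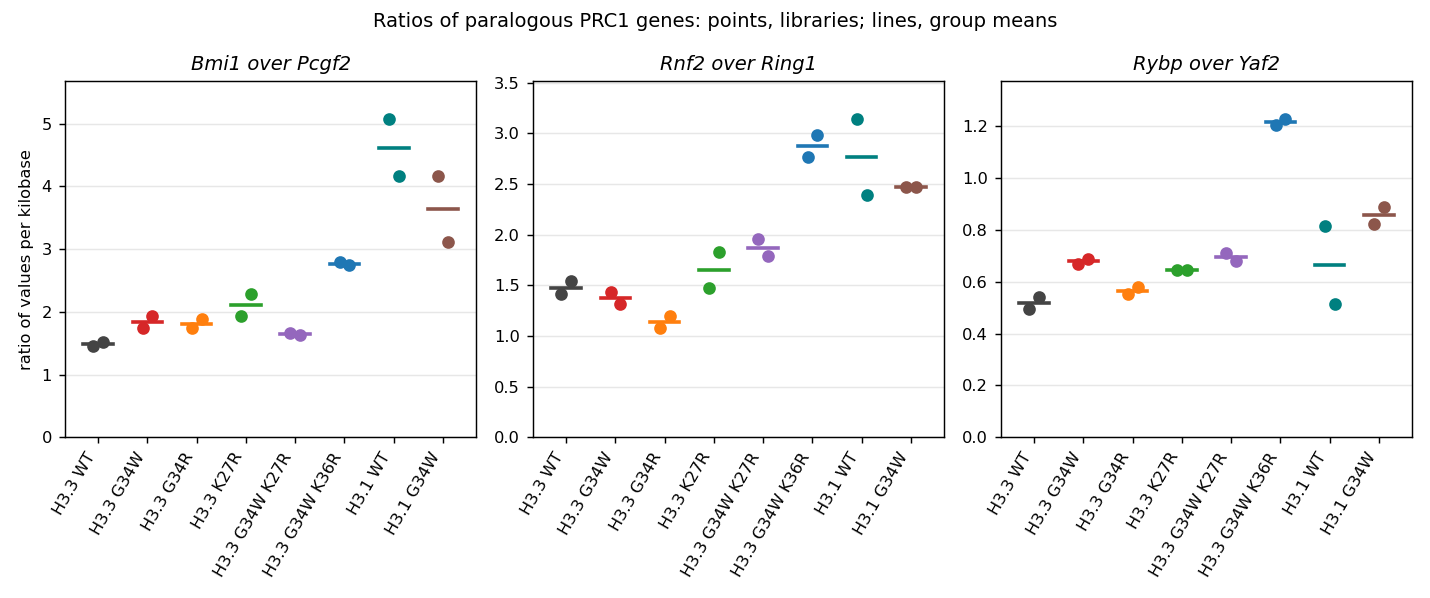
Ratios of paralogous or alternative subunits per length of transcript in each library, by transgene group, with the vertical axis starting at 0. Points are libraries and horizontal lines are group means. The ratios of Bmi1 to Pcgf2 and of Rnf2 to Ring1 are each higher in all 6 libraries of H3.3 G34W K36R, H3.1 WT and H3.1 G34W than in the other 10, and the ratio of Rybp to Yaf2 is above 1 in the H3.3 G34W K36R libraries alone.

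The CBX genes did not share an order of groups. Cbx2, a CBX protein with strong chromatin-compacting activity, was highest in H3.3 WT, at 1175 and 1185. It read 463 and 976 in H3.3 G34W, 609 and 585 in H3.3 G34R, 965 and 861 in H3.3 K27R, 517 and 552 in H3.3 G34W K27R, 488 and 481 in H3.3 G34W K36R, 461 and 378 in H3.1 WT, and 613 and 684 in H3.1 G34W. All 14 of these libraries lay below both H3.3 WT libraries, which count as 1 sample. Cbx2 fell against H3.3 WT in H3.1 WT by 1.50 on the log2 scale (SE 0.339, adjusted p = 0.00807), in H3.3 G34W K36R by 1.28 (adjusted p = 0.0280) and in H3.3 G34W K27R by 1.14 (adjusted p = 0.0491). Its differences in H3.3 G34R (-0.98 ± 0.339, adjusted p = 0.186), H3.3 G34W (-0.81 ± 0.339, adjusted p = 0.340) and H3.3 K27R (-0.37 ± 0.339, adjusted p = 0.739) did not pass. These comparisons share the same H3.3 WT control. The call in H3.3 G34W K27R was kept under 10 of 26 alternatives, and the one in H3.3 G34W K36R was lost when either of that group's libraries was left out.

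Cbx8, which neighbours Cbx2 on chromosome 11 in RefSeq, read 494 and 482 in H3.3 WT, 475 and 420 in H3.3 G34W, 505 and 477 in H3.3 G34R, 411 and 378 in H3.3 K27R, 346 and 334 in H3.3 G34W K27R, 393 and 375 in H3.3 G34W K36R, 246 and 304 in H3.1 WT, and 308 and 431 in H3.1 G34W. The H3.1 WT libraries were the lowest pair. Cbx8 fell there against H3.3 WT by 0.83 on the log2 scale (SE 0.231, adjusted p = 0.0197), a call lost without replicate 1 of H3.1 WT. Over the 16 libraries Cbx8 and Ring1 had a Pearson r of 0.88 on the log2 scale, with 0.95 within the 6 deeper and 0.82 within the 10 shallower libraries; Ring1 and Bmi1 had -0.88, with -0.86 and -0.64. Libraries of a group are not independent points, so these are descriptions.

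Cbx7, a CBX protein that represses Cdkn2a in cultured cells, followed another order. It read 202 and 208 in H3.3 WT, 266 and 306 in H3.3 G34W, 241 and 188 in H3.3 G34R, 328 and 304 in H3.3 K27R, 343 and 348 in H3.3 G34W K27R, 159 and 160 in H3.3 G34W K36R, 184 and 229 in H3.1 WT, and 213 and 227 in H3.1 G34W. The G34W K27R libraries were the highest and the G34W K36R libraries the lowest of the 16. Cbx7 fell in H3.3 G34W K36R against H3.3 G34W by 0.83 on the log2 scale (SE 0.190, adjusted p = 0.00897), a call also lost when either library of that double mutant was left out. Its differences from H3.3 WT in H3.3 G34W K27R (0.75 ± 0.233, adjusted p = 0.0567) and H3.3 K27R (0.62 ± 0.233, adjusted p = 0.248) did not pass. The gene Apobec3 overlaps Cbx7 in RefSeq, with deposited values of 756 to 1235, and since no source used here says that counting used strand, reads of the overlap cannot be told apart.

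Cbx6, per length the most abundant CBX transcript of the list, was called in no comparison. Its values lay between 6982 and 11294 (H3.3 K27R replicate 2 and H3.3 G34W replicate 1). They were 7366 and 6982 in H3.3 K27R and 7152 and 7498 in H3.3 G34W K27R, the 4 lowest libraries, and 8903 and 8918 in H3.3 WT. In H3.3 G34W K27R against H3.3 G34W its log2 fold change was -0.43 ± 0.144 (adjusted p = 0.0599), and with the H3.3 WT libraries counted separately it passed. The gene Npcd overlaps Cbx6, with values of 792 to 3305, and the same limit on strand applies.

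Yaf2 and its paralogue Rybp bridge the RING protein to the rest of variant PRC1. Yaf2 read 1467 and 1454 in H3.3 WT, 1092 and 986 in H3.3 G34W, 1207 and 1210.5 in H3.3 G34R, 1237 and 1188 in H3.3 K27R, 1248 and 1234 in H3.3 G34W K27R, 991 and 1041 in H3.3 G34W K36R, 1509.8 and 1920.1 in H3.1 WT, and 1414 and 1144 in H3.1 G34W. It passed the F test (adjusted p = 0.0194) but no single comparison; the nearest was H3.3 G34W K36R against H3.3 WT at -0.52 ± 0.181 (adjusted p = 0.0735). The 12 libraries of the 5 mutant H3.3 groups and H3.1 G34W lay below both H3.3 WT libraries, and those of H3.1 WT above them. Rybp rose in H3.3 G34W K36R against H3.3 G34W (0.81 ± 0.132, adjusted p = 0.00173), from 1964 and 1821 to 3205 and 3431. Per length, the ratio of Rybp to Yaf2 was 1.21 ± 0.0164 (SD, n = 2) in H3.3 G34W K36R and at most 0.890 in every other library.

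By comparison, the largest number of members was called between the histone types. In H3.1 WT against H3.3 WT, Bmi1 rose and Cbx2, Cbx8, Ring1 and Pcgf2 fell, 5 of 9, against 33.4% of all tested genes. Of these genes 16.4% rose and 17.0% fell. The median log2 fold change of the 9 was 0.00, against -0.01 over all tested genes. Without replicate 1 of H3.1 WT the calls of Cbx8 and Pcgf2 were lost and 3 remained. Proliferation markers summed to 67298 to 88689 in H3.1 WT and 59228 to 59345 in H3.3 WT. Chondrocyte markers summed to 12877 to 16487 in H3.1 WT and 58182 to 58393 in H3.3 WT. The chondrocyte sums are almost wholly those of Col2a1 and Sox9, since Acan was at most 19.7 in any library. The part of these markers in the result was not tested.

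In H3.3 G34W K36R against H3.3 G34W, Bmi1 and Rnf2 were called higher and Cbx7 lower. These 3 of 9 members are near the share of 30.6% of all tested genes (14.4% higher, 16.2% lower). Depth and transgene cannot be told apart here, nor for this double mutant against H3.3 WT. The median was -0.03, the same as over all tested genes. When either library of H3.3 G34W K36R was left out, the call of Bmi1 was kept and the others were lost. Without replicate 1 of H3.3 G34W, Cbx2 was called as well, since that library read 463 and the other 976. Mesenchymal markers summed to 862947 to 876692 in H3.3 G34W K36R and 444530 to 687937 in H3.3 G34W; their part was not tested. Against H3.3 WT the double mutant had Bmi1 higher and Cbx2 lower, 2 of 9, against 17.1% of all tested genes (8.31% higher, 8.82% lower), with a median of -0.35 over the 9 and -0.01 over all tested genes. Bmi1 alone was called when either library of the double mutant was left out, and Yaf2 was called as well when any 1 of the 4 H3.1 libraries was.

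Adding K27R to G34W called none of the 9, against 21.6% of all tested genes, with 1 member, Cbx6, at an unadjusted p under 0.05. Log2 fold changes ran from -0.43 (Cbx6) to 0.33 (Rnf2). Cbx2 and Rnf2 were called without replicate 1 of H3.3 G34W, and Cbx6 without its replicate 2 or when either library of H3.1 WT was left out. Against H3.3 WT, G34W K27R called Cbx2 alone, 1 of 9, against 14.3% of all tested genes in either direction and 7.88% lower, and without replicate 1 or 2 of H3.3 G34R, K27R, G34W K27R or G34W K36R it called none. Cbx7 was called with it when either library of H3.3 G34W or replicate 1 of H3.1 G34W was left out, and in its place without replicate 1 or 2 of H3.1 WT or replicate 2 of H3.1 G34W. Against H3.3 K27R it called none, against 26.2%, with Cbx2 (-0.77 ± 0.277, adjusted p = 0.0647) and Pcgf2 at an unadjusted p under 0.05, and Cbx2 passed when either library of H3.3 G34W was left out. Proliferation markers summed to 8636 to 8859 in H3.3 G34W K27R and to no less than 32215 in any other library, and adipocyte markers to 8789 to 8917, against 664 to 14708 in H3.3 G34W; their part in the values of these members was not tested.

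The single changes called no member by limma. In G34W against H3.3 WT the count was 0 of 9, against 1.24% of all tested genes, with Cbx2 and Yaf2 at an unadjusted p under 0.05. In G34R it was 0, against 2.74%, with Cbx2 at that level, and in K27R it was 0, against 2.87%, with Cbx7. These background counts move with single libraries: leaving out 1 at a time, they ran from 54 to 1528 of all tested genes in G34W (157 with all), 76 to 994 in G34R (347 with all) and 101 to 890.0 in K27R (363 with all). The count of 1528 came without replicate 2 of H3.3 G34W, and the lowest without a library of H3.3 G34W K36R, G34R and K27R in turn. Cbx2 was called in G34W against H3.3 WT without replicate 2 of H3.3 G34W, and in G34R against H3.3 WT when either library of H3.3 G34W was left out. G34R against G34W called 0, against 0.845%, and none reached an unadjusted p of 0.05. The background there was 107 genes, and 3 to 1065 with 1 library left out (1065 without replicate 2 of H3.3 G34W, 3 without replicate 2 of H3.3 G34R). Bmi1 differed there by 0.03 ± 0.106 and Pcgf2 by 0.05 ± 0.139.

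On H3.1, G34W called none of the 9 and none of all tested genes (0%), while 2015 genes, Cbx2 and Yaf2 among them, had an unadjusted p under 0.05. This count rests on single libraries: 2477 of all tested genes were called without replicate 1 of H3.1 G34W and 2269 without replicate 1 of H3.1 WT. Cbx2 differed by 0.63 ± 0.277 and Yaf2 by -0.42 ± 0.148. Among the members, Cbx8 and Yaf2 were called in the first of these fits and Yaf2 in the second. The effects of G34W on the 2 histone types differed in no member (0, against 0.197% of all tested genes); Cbx2 had the largest difference, 1.44 ± 0.437 (adjusted p = 0.276), at an unadjusted p under 0.05, and it passed without replicate 2 of H3.3 G34W. The effects of G34W with and without K27R on H3.3 also differed in no member, against 7.96%, with Rnf2, Pcgf2 and Yaf2 at an unadjusted p under 0.05. Rnf2 passed there without replicate 1 of H3.3 G34W.

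**Figure D3:**
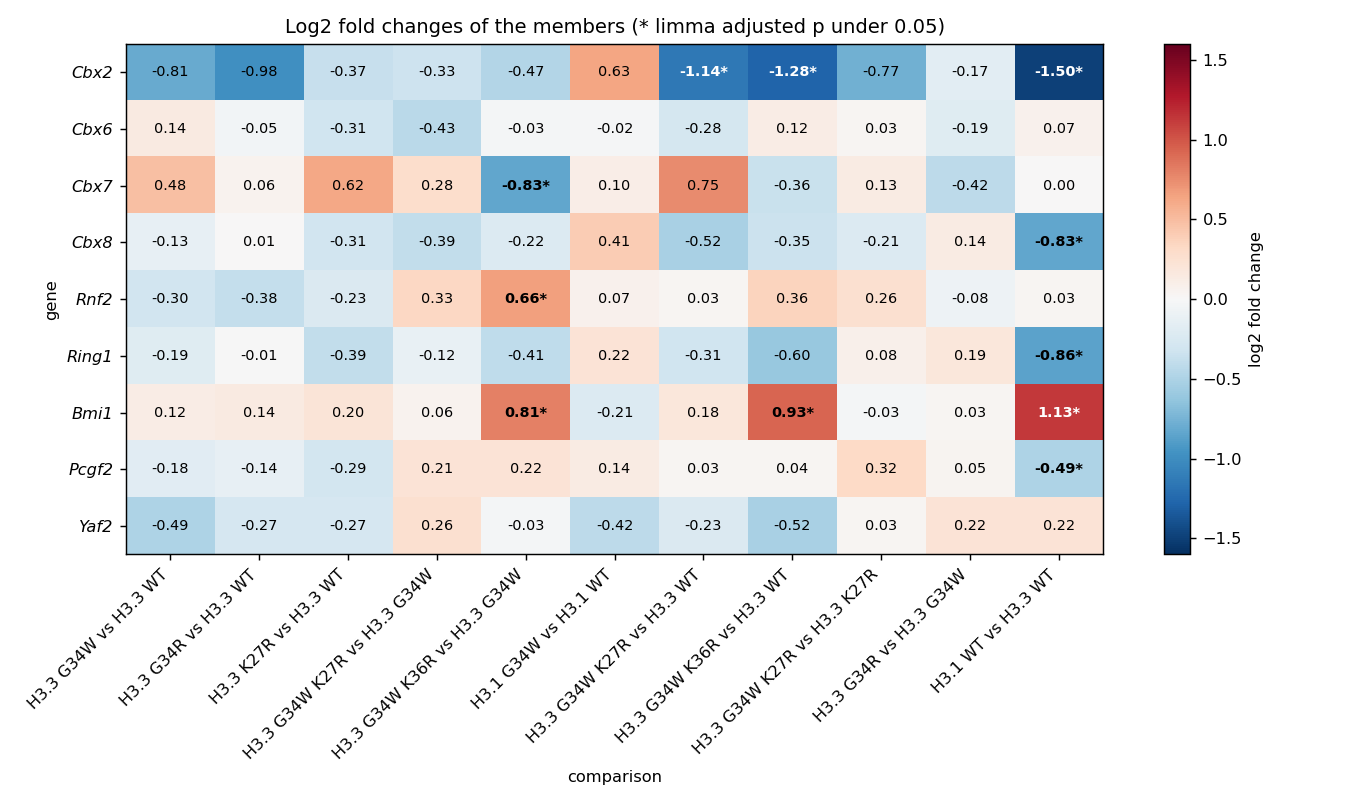
Heat map of the log2 fold change of each member (rows) in each of the 11 comparisons (columns), fitted on log2(value + 1), with the value printed in each cell and coloured red above and blue below 0. Bold values with an asterisk are the 11 calls (limma adjusted p under 0.05); the 3 calls of Bmi1 are above 0 and the 3 calls of Cbx2 below 0.

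Among the other PRC1 genes, most calls in the same comparisons were upward. Of 20 such subunits and partners, 19 were tested, Auts2 being near 0 in all libraries. In H3.3 G34W K36R against H3.3 G34W, 8 rose and 1 fell, against 14.4% and 16.2% of all tested genes. Besides Rybp, the largest were Pcgf5 (1.04), a PCGF protein of variant PRC1, E2f6 (0.95), a DNA-binding partner of the Pcgf6 complex, and Fbrsl1 (-0.95). In H3.1 WT against H3.3 WT, 7 rose and 1 fell, against 16.4% and 17.0%. Pcgf5 rose by 1.74 ± 0.342, from 401 and 389 to 1315 and 1336, the Polyhomeotic gene Phc2 by 1.19 and Pcgf6 by 1.01. The median over the 19 was 0.46 and 0.40 in these comparisons, against -0.03 and -0.01 over all tested genes.

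In H3.3 G34W K27R against H3.3 G34W, 3 of the 19 rose and 1 fell, against 9.24% and 12.4% of all tested genes. Scml2, an SCM-family partner of PRC1, fell by 1.87 on the log2 scale (SE 0.266, adjusted p = 7.04e-04), from 177 and 285 to 59.9 and 61.3. It was also the only gene of the list in which the effect of G34W differed with and without K27R (-1.94 ± 0.420, adjusted p = 0.0189). Of all tested genes, 7.96% did so. Scmh1 rose by 0.98 and E2f6 by 1.09. In H3.3 G34W, G34R or K27R against H3.3 WT and in H3.1 G34W against H3.1 WT, none of the 19 was called. The shares of all tested genes called were also low there, at 1.24%, 2.74%, 2.87% and 0% in that order.

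**Figure D4:**
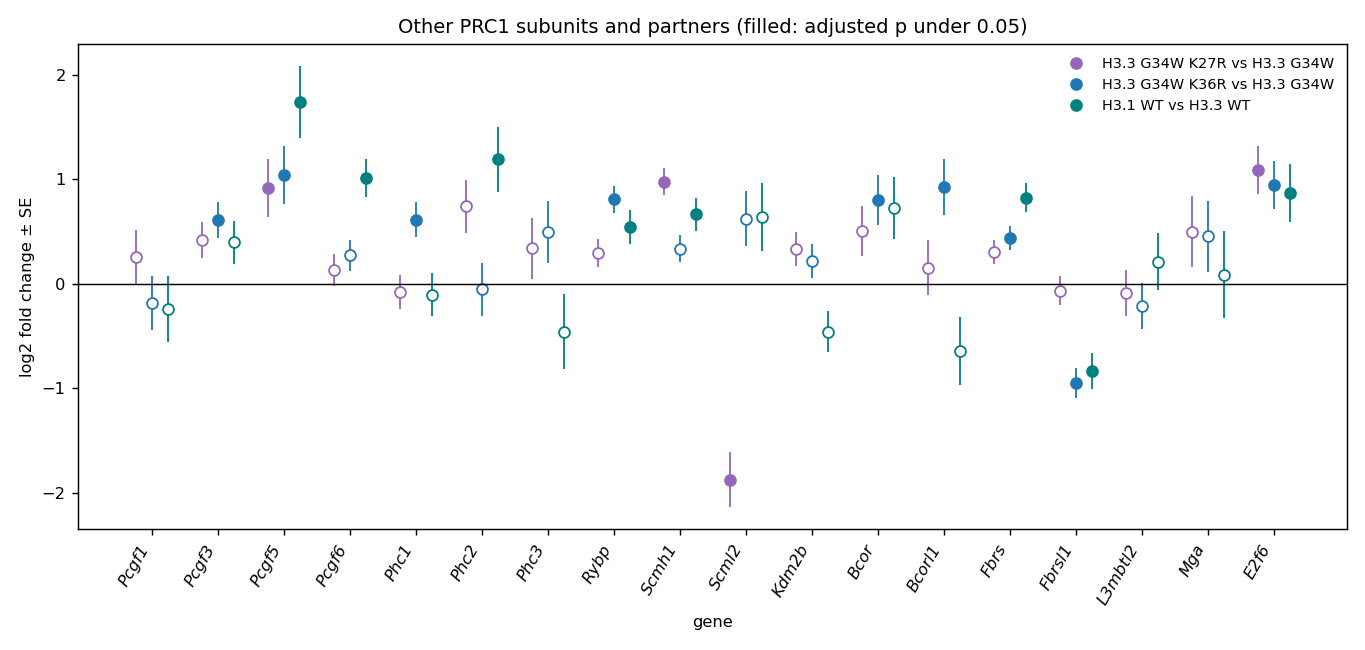
Log2 fold changes of other PRC1 subunits and partners that were tested, fitted on log2(value + 1), in H3.3 G34W K27R and H3.3 G34W K36R, each against H3.3 G34W, and in H3.1 WT against H3.3 WT. Bars are 1 standard error and filled points are calls (adjusted p under 0.05), which lie above 0 except those of Fbrsl1 and Scml2.

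PRC2, whose mark the CBX proteins read, was described by 6 core genes. The catalytic gene Ezh2 fell in H3.3 G34W K27R against H3.3 G34W by 0.91 on the log2 scale (SE 0.238, adjusted p = 0.0216), from 1304 and 2004.5 to 902 and 822, beside the low proliferation markers given above. In H3.1 WT against H3.3 WT, Ezh2 (0.87) and Suz12 (1.50) rose and Ezh1, the alternative catalytic gene, fell by 2.21 on the log2 scale, 3 of 6, against 33.4% of all tested genes. Suz12 also rose in H3.3 G34W K36R against H3.3 G34W (1.21 ± 0.201, adjusted p = 0.00195), and Eed was called in no comparison. Of the 3 HP1 genes, which encode CBX proteins outside PRC1, Cbx3 rose in H3.3 G34W K36R against H3.3 G34W (0.78) and in H3.1 WT against H3.3 WT (1.04), and Cbx5 fell in H3.3 G34W K27R against H3.3 G34W (-1.13). Each is 1 of 3, against 30.6%, 33.4% and 21.6% of all tested genes in that order. Of 7 genes for enzymes that remove ubiquitin from H2A, Mysm1 rose in H3.3 G34W K27R against H3.3 G34W (0.79) and in H3.3 G34W K36R against H3.3 G34W (0.54). Usp16 rose (1.04) and Usp21 fell (-0.76) in H3.1 WT against H3.3 WT. These are 1, 1 and 2 of 7, against 21.6%, 30.6% and 33.4% of all tested genes, so this list was called no more often than genes at large.

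Among 20 textbook targets of Polycomb, 8 were tested, and Cdkn2a, Cdkn2b, Hoxa7 and Hoxc9 passed the F test, against 66.6% of all tested genes. Hoxc9 was among the 8 only through its values in H3.3 WT. Cdkn2a, known for encoding p16 and p19, read 0.968 and 0 in H3.3 WT, 37.5 and 39.4 in H3.3 G34W, 142 and 139 in H3.3 G34R, 115 and 69.8 in H3.3 K27R, 427 and 456 in H3.3 G34W K27R, 27.4 and 25.6 in H3.3 G34W K36R, 5.31 and 4.89 in H3.1 WT, and 13.5 and 9.24 in H3.1 G34W. The values in H3.3 WT are under the floor of 3 reads (2.27 to 3.74 in the deposited unit). Cdkn2b, which encodes p15, was 0 in both H3.3 WT libraries and 759 and 797 in H3.3 G34W K27R, with 61.9 and 44.8 in H3.3 G34W, 36.2 and 29.1 in H3.3 G34W K36R and 1.52 and 5.86 in H3.1 WT. Across the groups, Cbx7 and Cdkn2a were both highest in H3.3 G34W K27R. In H3.1 WT, where Cbx2, Cbx8, Ring1 and Pcgf2 were lower than in H3.3 WT, Cdkn2a was 5.31 and 4.89. There Cdkn2a and Cdkn2b were called higher than in H3.3 WT, with log2 fold changes of 2.12 and 2.06. Both were also called higher against H3.3 WT in H3.3 G34W, G34R, K27R, G34W K27R and G34W K36R. The largest of these changes were in G34W K27R (8.30 for Cdkn2a and 9.60 for Cdkn2b). All of them start from H3.3 WT values under the floor.

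The deposited values of the Hox genes of the list did not share an order of groups. Hoxa7, a homeobox gene of positional identity, read 314 and 315 in H3.3 WT, 616 and 689.9 in H3.1 WT and 744 and 719 in H3.3 G34W K36R. It rose by 1.05 ± 0.176 in H3.1 WT (adjusted p = 0.00179) and by 1.22 ± 0.176 in H3.3 G34W K36R (adjusted p = 0.00184), each against H3.3 WT, and was also called higher in H3.3 G34R and H3.3 G34W K27R against H3.3 WT and in H3.3 G34W K36R against H3.3 G34W. Hoxc9 read 63.2 and 57.1 in H3.3 WT, 0 in both H3.1 WT libraries and at most 16.4 in any other library. It reached the minimum mean of 10 only through H3.3 WT, where it was high. Its tests against H3.3 WT therefore carry no weight and are not given. Hoxa5, Hoxa10, Gata4 and Gata6 did not pass the F test, with adjusted p from 0.0830 (Gata6) to 0.313 (Gata4), although Hoxa5 (0.64) and Hoxa10 (0.83) were called higher in H3.3 G34W K27R against H3.3 K27R. The other 12 listed targets were too low to be tested.

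The genes whose pattern over the 16 libraries was most like a member's were ranked by Pearson r of log2(value + 1) among 10640 genes with a mean of at least 50. For Bmi1 these were Herc4 (0.991), Mtpn (0.990) and Cul4b (0.987). Within the 10 shallower libraries Herc4 fell to an r of 0.555. For Ring1 they were Rras (0.954), Hdhd3 and Higd2a, and for Cbx8 Serhl (0.955), Ccdc90b and Jdp2. For Cbx2 they were Fam169b (0.917), Sgsm3 and Sox6, for Cbx7 Fam134a (0.896), Gtpbp5 and Smcr7, and for Cbx6 Ptgr2 (0.897), Ctbs and Fbxo17. Rnf2 was most like Zfp874b (0.947), Trim23 and Nkap, Pcgf2 like Usp21 (0.920), C1s and Zfp839, and Yaf2 like Nhp2l1 (0.942) and Fam133b. Cbx8 with Serhl held within the 6 deeper (0.904) and the 10 shallower libraries (0.965). Some likenesses were weaker within the 6 deeper libraries, where Cbx6 with Ptgr2 had an r of 0.313 and Cbx2 with Fam169b 0.591. Others were stronger there than within the 10 shallower libraries, such as Yaf2 with Nhp2l1 (0.992 against 0.806) and Pcgf2 with C1s (0.959 against 0.772).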

How the data were processed

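Polyadenylated RNA of 16 libraries, 2 per group, was analysed. Per the submitters' processing notes the authors used RSEM 1.2.4 and mm9; the table's name gives a median normalization. The deposited signal is an expected count times 1 constant per library. Whole reads could not be recovered (41.7% to 47.6% of values above 0 lay within 0.01 of a whole read), so no count model was run. Depth, estimated from the value of 1 read, was 26.02 to 49.1 M reads; floors cover counting error only.

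limma 3.58.1 (R 4.3.3, statmod 1.5.0; lmFit, eBayes with trend and robust) was fitted to log2(value + 1), two-sided, on the 12670 genes whose mean reached 10 or more. P-values were adjusted over them by Benjamini-Hochberg, with calls under 0.05. Both H3.3 WT libraries were averaged on the log2 scale, which left 15 samples and 7 residual degrees of freedom. There were 11 comparisons and 2 interactions. Pair agreement was a chi-square over genes with at least 20 reads. The fit was tested on simulated data. A second deposited table of 180 genes was not used. Named were all members, called genes of the lists (at most 4 a list and comparison, by size), Ezh2, Eed, Suz12, Cdkn2a and Cdkn2b, and the 3 genes most like each member; Auts2, Rybp and the neighbours Commd3, Apobec3 and Npcd were added after their values were seen, as were Hoxa5, Hoxa10, Gata4 and Gata6, and some genes that the rule names are not reported here. The members and lists were chosen with earlier results of these data known. Transcript lengths are from GENCODE M21 and promoters from RefSeq, both of GRCm38, so no gene coordinates are given for the mm9 values. Alternatives were other pseudocounts and filters, TMM and quantile scaling, plain eBayes, a replicate block, H3.3 WT counted separately, close pairs as 1 sample, and each library left out.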

Additional observations from a re-analysis of the deposited data

How the results depend on the processing

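Of the 11 calls of members in comparisons, none changed direction under the 10 alternatives or with any of the 16 libraries left out. All 11 were kept with a pseudocount of 0.5 or 5, with H3.3 WT counted separately and under the replicate block; 10 were kept with a minimum mean of 50 and under TMM, and 9 without a filter, under quantile normalization and with plain eBayes. With 5 close pairs counted as 1 sample each, the members called fell to 0 in the F test, H3.3 G34W K36R against H3.3 G34W and against H3.3 WT, H3.3 G34W K27R against H3.3 WT, and H3.1 WT against H3.3 WT. Without a filter and with a minimum mean of 50, H3.3 G34W K27R against H3.3 WT called 0. With H3.3 WT counted separately, the members called were 1 in H3.3 G34R against H3.3 WT, 1 in H3.3 K27R against H3.3 WT, 1 in H3.3 G34W K27R against H3.3 G34W, 3 in H3.3 G34W K27R against H3.3 WT, 4 in H3.3 G34W K36R against H3.3 WT and 1 in H3.3 G34W K27R against H3.3 K27R. A replicate block, fitted with H3.3 WT separate, gave 1 (H3.3 G34R against H3.3 WT), 1 (H3.3 G34W K27R against H3.3 G34W), 2 (H3.3 G34W K27R against H3.3 WT) and 4 (H3.3 G34W K36R against H3.3 WT). Replicate numbers gave no sign of a pairing of the samples: differences between replicates correlated at -0.265 to 0.0598 over the 28 pairs of groups. In the 5 close pairs these differences lie near sampling noise, so the correlations cannot exclude a pairing there. They could show one mainly among H3.3 G34W, H3.1 WT and H3.1 G34W, where none was above 0.0598 either.

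With each library left out in turn, members called ran from 3 to 9 in the F test, 0 to 1 in H3.3 G34W against H3.3 WT, 0 to 1 in H3.3 G34R against H3.3 WT, 0 to 2 in H3.3 G34W K27R against H3.3 G34W, 1 to 4 in H3.3 G34W K36R against H3.3 G34W, 0 to 2 in H3.1 G34W against H3.1 WT, 0 to 2 in H3.3 G34W K27R against H3.3 WT, 1 to 3 in H3.3 G34W K36R against H3.3 WT, 0 to 1 in H3.3 G34W K27R against H3.3 K27R, 3 to 5 in H3.1 WT against H3.3 WT, and 0 to 1 in each interaction. A group left with 1 library is assumed to vary like the others. Among all tested genes, close pairs counted as 1 sample left 622 of 4227 calls in H3.1 WT against H3.3 WT and 133 of 3882 in H3.3 G34W K36R against H3.3 G34W; H3.3 WT counted separately gave 6306 and 4395. Which of these fits describes the cultures was not tested. Members had at least 156 reads in every library; how depth bears on the calls was not tested.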
